A study of Sus scrofa with 35 samples.

Results

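The chaperonins are barrel-shaped protein folding machines, and their messenger RNA was followed here in the whole blood of growing pigs kept in thermoneutral (TN) or hot (HS) conditions. The genes were TCP1, CCT2, CCT3, CCT4, CCT5, CCT6A, CCT7 and CCT8, which code for the subunits of the cytosolic chaperonin TRiC, and HSPD1 (HSP60) and HSPE1 (HSP10), which code for the mitochondrial chaperonin and its lid. They were chosen by symbol, as every probe of the array that was not a control and carried 1 of these 10 names. This gave 46 of the 60305 probes and 9 of the 10 genes, since no probe was named CCT6A. Of the 46 probes, 45 were among the 39072 probes of the authors' table of log2 values, and the remaining CCT2 probe was well above background on 0 of the 35 arrays.

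Each array held the blood RNA of 1 castrated male pig, collected in tubes that stabilise RNA. The pigs were Creole (CR), a local Caribbean breed, Large White (LW), a breed of intensive pig farming, or F1 pigs of the cross between both. The TN pigs were held at 24 °C, and HS pigs are labelled 30 °C in the sample records but 32 °C in the protocol text, with an exposure of 5 days in the labels and of 4 or 5 days in the methods. The CR TN group had 5 pigs, and the CR HS, F1 TN, F1 HS, LW TN and LW HS groups had 6 each. No treatment other than temperature was named. According to the methods of the study, TN pigs were slaughtered before the temperature was raised, so temperature and period of sampling cannot be told apart.

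TRiC is built from 2 stacked rings, each with the same 8 kinds of subunit, and folds newly made proteins such as actin and tubulin in a cycle driven by ATP. HSP60 forms rings of a single kind of subunit in the mitochondrial matrix, where HSP10 closes the chamber while a protein folds. HSPD1 and HSPE1 are neighbouring genes and are classic targets of the heat shock response, whereas TRiC subunits are made in nearly all cells and are usually regarded as a standing complex. Whole blood is a mixture of red cells, platelets and white cells, so each value is an average over these cells.

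The probes were 60 bases long, and the number of probes differed widely between genes. HSPD1 had 21 probes, TCP1 and HSPE1 had 6 each, CCT2 had 2 in the table, and CCT3, CCT4, CCT5, CCT7 and CCT8 had 2 each. Every one of the 45 probes was well above background on all 35 arrays except the HSPD1 probe O3429, which was so on 24 arrays. Calls for CCT2, CCT5 and CCT8 differed between the probes of the gene, so 1 probe of each of 6 subunits is shown to make clear what was read. The called probes of CCT2 and, in F1 pigs, of CCT5 were O9189 and A_72_P418279, which are not shown. For CCT8 the called probe is shown. The letters of the array design are written 5′ to 3′.
CCT2 probe A_72_P233457: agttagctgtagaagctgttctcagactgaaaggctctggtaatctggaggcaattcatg
CCT3 probe A_72_P080521: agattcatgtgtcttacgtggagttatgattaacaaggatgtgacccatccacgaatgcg
CCT4 probe O7878: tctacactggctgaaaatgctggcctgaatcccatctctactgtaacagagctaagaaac
CCT5 probe O14583: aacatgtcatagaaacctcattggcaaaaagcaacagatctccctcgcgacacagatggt
CCT7 probe O10187: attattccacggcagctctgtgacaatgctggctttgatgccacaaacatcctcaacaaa
CCT8 probe O10713: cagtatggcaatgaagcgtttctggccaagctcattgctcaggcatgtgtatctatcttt

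Probes of TCP1, HSPD1 and HSPE1 overlapped each other, so they are not independent measurements of a gene. At least 20 bases in a row were shared by 6 of the 15 TCP1 pairs, 19 of the 210 HSPD1 pairs and 1 of the 15 HSPE1 pairs, and 1 TCP1 pair was identical. The following TCP1 probes are shown because they read nearly the same stretch, with the 45 bases that both hold in capitals.
TCP1 probe A_72_P079966: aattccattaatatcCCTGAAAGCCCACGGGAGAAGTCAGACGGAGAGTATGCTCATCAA
TCP1 probe A_72_P607088: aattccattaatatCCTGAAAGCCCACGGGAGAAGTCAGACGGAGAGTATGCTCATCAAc
The HSPD1 probes below are the 3 that start nearest to the 5′ end of the transcript, at bases 652, 1435 and 1442, and they are shown because HSPD1 differed between HS and TN pigs at these probes. Capitals mark the 51 bases that the last 2 of them share.
HSPD1 probe A_72_P110291: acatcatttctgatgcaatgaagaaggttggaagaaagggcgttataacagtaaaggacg
HSPD1 probe A_72_P619640: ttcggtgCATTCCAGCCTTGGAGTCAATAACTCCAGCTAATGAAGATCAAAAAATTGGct
HSPD1 probe A_72_P601078: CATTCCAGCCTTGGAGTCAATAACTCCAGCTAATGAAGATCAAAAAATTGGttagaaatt
A probe of HSPE1 is shown with the 15 bases it shares without a break with a second HSPE1 probe, O8477, in capitals.
HSPE1 probe A_72_P752325: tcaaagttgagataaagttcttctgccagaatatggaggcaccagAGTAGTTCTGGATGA

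The arrays themselves differed in brightness, measured as the 75th percentile of the processed intensity. It was 149.9 ± 28.3 in F1 TN pigs and 238 ± 35.6 in F1 HS pigs (SD, n = 6 each), and the means of the CR and LW groups lay between 202 and 228. Red cell markers also differed. Of 18 erythroid genes listed, 13 were measured, of which 5 were lower and 1 was higher in HS pigs, and their median log2 difference was -0.54. Their summed intensity ranged from 297763 to 561849 in F1 TN pigs and from 256879 to 493721 in F1 HS pigs, from 328240 to 404318 and 288521 to 488125 in CR TN and CR HS pigs, and from 335838 to 576037 and 391641 to 537888 in LW TN and LW HS pigs. Of the 7 neutrophil genes measured, 0 passed the test (limma), with 1 at an unadjusted p below 0.05 and a median of -0.39, while 3 of 6 monocyte, 3 of 8 T cell and 3 of 5 B cell genes were higher in HS pigs. Of 5 NK cell genes, KLRK1 was lower, at -0.75 (adjusted p = 0.0437), with a list median of -0.02, and of 3 platelet genes 0 passed, with 0 at an unadjusted p below 0.05 (limma). Over all probes 20.1% were higher and 14.7% were lower. In such bulk samples, fewer cells of a type and less RNA per cell cannot be told apart, and the part of these cells in the results below was not tested beyond the covariate values given there.

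The first comparison asked whether chaperonin messenger RNA differed between HS and TN pigs over the 3 breeds. TRiC subunits TCP1, CCT3 and CCT7 were higher in HS pigs, CCT2 was lower at its brightest probe, and no difference of HSPD1 and HSPE1 passed the test at their brightest probes. Counted by probe, 11 of the 45 probes were higher and 1 was lower at an adjusted p below 0.05 (limma), which is 26.7% of them. Over all 39072 probes, 34.8% passed in either direction, 20.1% as higher and 14.7% as lower, so the share of chaperonin probes called was no larger than that of the array as a whole. These fits treat pigs as independent. The study, whose model also held pen, day of slaughter, father and mother, reported far fewer differing probes in blood. The median log2 difference of the 45 probes was 0.15 against 0.06 for all probes, and 42 of the 45 were above 0. Of these 42, 20 were HSPD1 probes, and the median over the brightest probes of the 9 genes was 0.09. A log2 difference of 1 stands for a 2-fold change.

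TCP1 is the subunit after which the complex was first named. At its brightest probe, the log2 intensity of F1 TN pigs ran from 12.74 over a median of 13.02 to 13.49, and that of F1 HS pigs from 13.27 over 13.59 to 13.77. In LW pigs the values were 12.90, 13.18 and 13.38 in TN against 13.04, 13.33 and 13.47 in HS conditions. The 5 CR TN pigs had 13.00, 13.28, 13.44, 13.51 and 13.54, and the CR HS pigs ran from 13.16 over 13.56 to 13.86. The groups overlapped in every breed, but 15 of the 18 HS pigs lay above the TN mean of their own breed. Over the 3 breeds TCP1 was higher by 0.27 ± 0.08 (SE) in HS pigs (adjusted p = 0.00912, limma, 35 arrays), and the 5 other TCP1 probes gave 0.18 to 0.22, with 2 of them past the threshold.

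CCT7 showed a similar picture, with 15 of the 18 HS pigs above the TN mean of their breed. Its brightest probe ran from 12.37 over 12.56 to 12.80 in F1 TN pigs and from 12.78 over 13.05 to 13.19 in F1 HS pigs, so that a single HS pig lay within the TN range. In LW pigs the values ran from 12.61 over 12.77 to 12.87 in TN and from 12.69 over 12.90 to 13.05 in HS conditions. The CR TN pigs had 12.59, 12.75, 12.86, 12.87 and 12.89 and the CR HS pigs ran from 12.44 over 13.01 to 13.16, the lowest and the highest of that breed both being HS pigs. The log2 difference was 0.24 ± 0.06 (adjusted p = 0.00488), and the second probe gave 0.27 ± 0.08 (adjusted p = 0.0101).

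CCT3 was also higher at both of its probes. The brightest probe was tightly grouped in CR TN pigs, at 12.02, 12.07, 12.11, 12.12 and 12.12, against 11.82, 12.16 and 12.32 as the lowest, median and highest of the CR HS pigs. The F1 TN pigs ran from 11.67 over 11.83 to 12.04 and the F1 HS pigs from 12.05 over 12.25 to 12.51, which left no overlap. Groups without overlap were found in F1 pigs for 3 of the 45 chaperonin probes, and for 11.7% of all probes. The difference over the 3 breeds was 0.18 ± 0.06 (adjusted p = 0.0211) at this probe and 0.45 ± 0.12 (adjusted p = 0.00637) at the dimmer probe A_72_P080521.

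CCT2 was the only subunit called lower, and its 2 probes disagreed. At the brightest probe, O9189, F1 TN pigs ran from 11.79 over 12.33 to 12.57 and F1 HS pigs from 11.09 over 11.31 to 11.81. LW TN pigs ran from 11.82 over 12.04 to 12.10, LW HS pigs from 11.45 over 11.60 to 12.08, and CR HS pigs from 10.85 over 11.53 to 12.26, beside 11.69, 11.77, 11.96, 12.07 and 12.24 in CR TN pigs. Only 2 of the 18 HS pigs lay above the TN mean of their breed. The log2 value fell by 0.55 ± 0.11 over the 3 breeds (adjusted p = 0.00159), whereas the second probe, A_72_P233457, gave 0.12 ± 0.10 (adjusted p = 0.334), and the mean of both probes fell by 0.22 (adjusted p = 0.0242). Across pigs, with group means removed, the 2 probes had a Pearson correlation of only 0.158 (n = 35 arrays). The probe pairs of CCT3 and CCT5 were similar, at 0.152 and 0.198, and those of CCT4, CCT7 and CCT8 ran from 0.52 to 0.77.

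**Figure D1:**
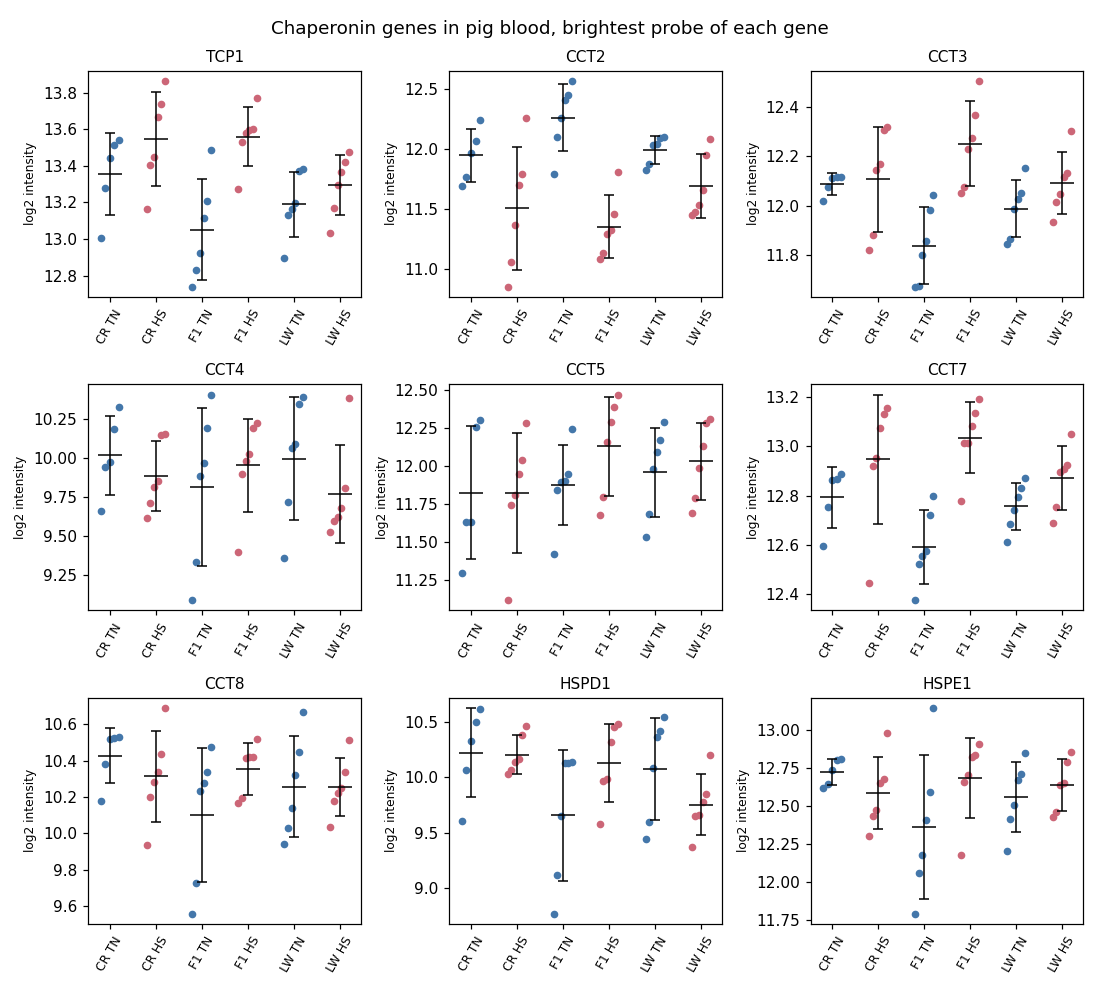
Log2 intensity of the brightest probe of each of the 9 measured chaperonin genes, 1 panel per gene, with 1 point per pig in the 6 groups of breed and temperature (blue, TN; red, HS). Black bars give the mean ± SD of 5 or 6 pigs. CCT2 sits lower in HS pigs of each breed, and in F1 pigs CCT3 does not overlap between temperatures.

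For the other subunits the brightest probe did not pass the test. The log2 differences were -0.07 ± 0.11 for CCT4 (adjusted p = 0.645), 0.11 ± 0.11 for CCT5 (adjusted p = 0.427) and 0.05 ± 0.08 for CCT8 (adjusted p = 0.655). Of the 18 HS pigs, 8, 11 and 10 lay above the TN mean of their breed for CCT4, CCT5 and CCT8. CCT8 had a second, dimmer probe, O10713, that was higher by 0.29 ± 0.08 in HS pigs (adjusted p = 0.00673), so the call for this gene depended on the probe read. The second CCT4 probe had the opposite sign, at 0.08 ± 0.13, and did not pass either.

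HSPD1 and HSPE1 did not pass the test at their brightest probes, with log2 differences of 0.05 ± 0.14 (adjusted p = 0.811) and 0.09 ± 0.10 (adjusted p = 0.45). HSPD1 ran from 8.77 over 9.89 to 10.14 in F1 TN pigs and from 9.58 over 10.15 to 10.48 in F1 HS pigs. In LW pigs it ran the other way, from 9.45 over 10.22 to 10.55 in TN and from 9.37 over 9.72 to 10.20 in HS conditions, with a difference of -0.33 ± 0.22 that did not pass. In CR pigs it was 9.60, 10.06, 10.33, 10.50 and 10.62 in TN conditions and ran from 10.03 over 10.15 to 10.46 in HS conditions. HSPE1 ran from 11.79 over 12.29 to 13.14 in F1 TN pigs, the widest range of any group for this gene, and from 12.18 over 12.76 to 12.91 in F1 HS pigs. Of the 6 HSPE1 probes, 0 passed over the 3 breeds and 0 had an unadjusted p below 0.05 (limma), while 3 of the 21 HSPD1 probes did.

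**Figure D2:**
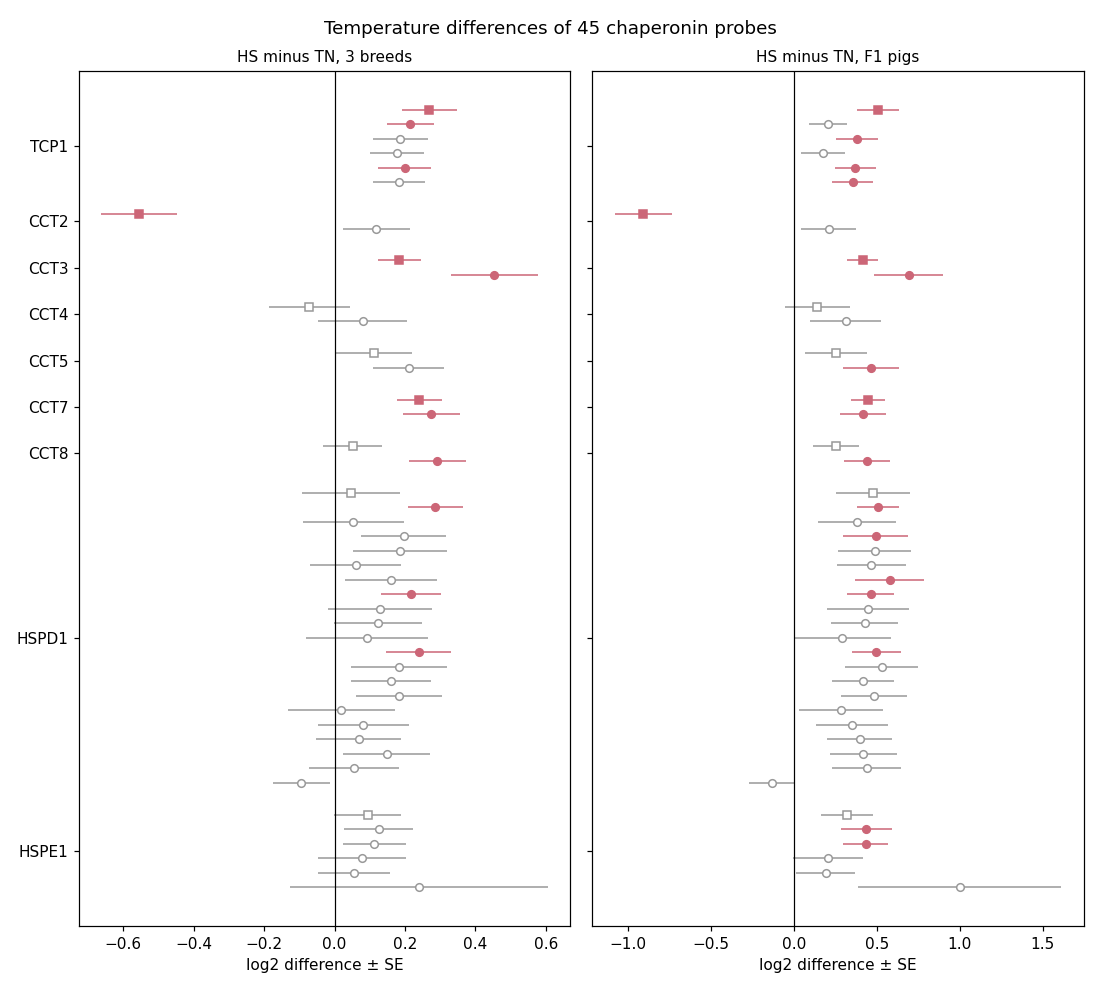
Log2 difference between HS and TN pigs ± SE for the 45 chaperonin probes, grouped by gene, over the 3 breeds (left) and in F1 pigs (right). Squares are the brightest probe of a gene, circles the others, and red filled marks passed an adjusted p of 0.05. The brightest CCT2 probe stands apart on the left of 0, while the second CCT2 probe lies on the right. On the right of 0, 11 probes passed over the 3 breeds against 17 in F1 pigs.

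The 3 HSPD1 probes that passed were those that start nearest to the 5′ end of the transcript shown above. Their log2 differences were 0.29 ± 0.08 at base 652 (adjusted p = 0.00615), 0.24 ± 0.09 at base 1435 (adjusted p = 0.0419) and 0.22 ± 0.09 at base 1442 (adjusted p = 0.0467). The difference was 0.16 at base 1504, 0.08 to 0.20 for the 7 probes from base 1688 to 1823, 0.05 to 0.12 for the 5 from base 1917 to 1987 and 0.02 to 0.13 for the 4 from base 2185 to 2209. Over the 20 probes with a position, the difference and the start of the probe had a Pearson correlation of -0.81, given as a description since neighbouring probes overlap and all share the same arrays. The SE rose along the transcript too, from 0.08 to 0.17, with a correlation of 0.87.

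In LW pigs the correlation with position was -0.90, with differences of 0.15 at base 652 and of -0.37 to -0.20 from base 2185 to 2209. In F1 pigs it was -0.46, and in CR pigs -0.26. Differences in F1 pigs were 0.41 to 0.51 for the 4 probes up to base 1504 and 0.35 to 0.58 from base 1688 to 1823. They were 0.40 to 0.48 from base 1917 to 1987 and 0.28 to 0.45 from base 2185 on. The largest F1 difference lay at base 1823 (0.58, adjusted p = 0.028, limma). Of the HSPD1 calls in F1 pigs, 3 lay up to base 1504 and 2 from base 1688 to 1823. No difference in LW or CR pigs passed the test at any of these probes. The probe at base 652 ran from 7.82 over 7.92 to 8.18 in F1 TN pigs and from 8.23 over 8.44 to 8.75 in F1 HS pigs, so these groups did not overlap, unlike those of the brightest HSPD1 probe at base 1987. The 2 F1 groups did not overlap for 11.7% of all probes.

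**Figure D3:**
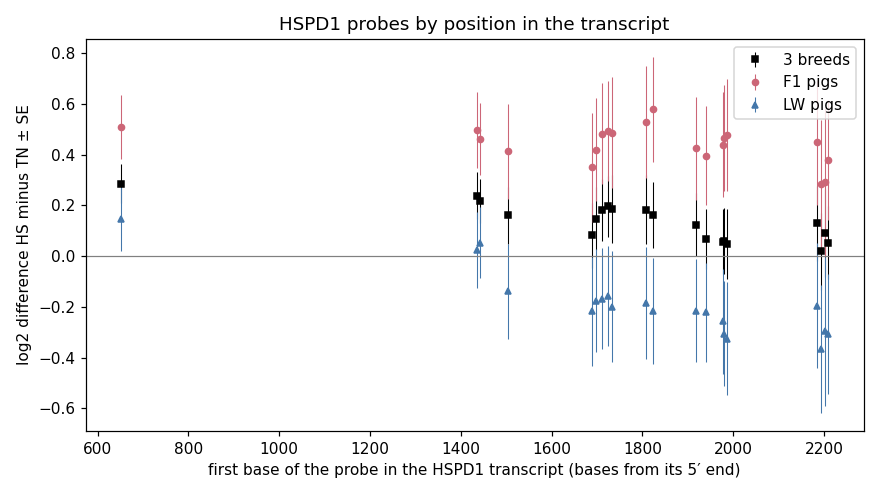
Log2 difference HS minus TN ± SE of 20 HSPD1 probes (y axis) against the first base of the probe in the transcript (x axis), over the 3 breeds (black squares), in F1 pigs (red circles) and in LW pigs (blue triangles). The difference over the 3 breeds declines from 0.29 at base 652 to between 0.02 and 0.13 beyond base 2185.

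Within breeds, calls were made in F1 pigs alone. In F1 pigs, 17 of the 45 probes were higher and 1 was lower in HS conditions (40.0%), beside 38.7% of all probes, 20.8% as higher and 17.9% as lower. The CCT2 probe O9189 fell by 0.91 ± 0.17 (adjusted p = 0.000315). TCP1 rose by 0.51 ± 0.13 (adjusted p = 0.00289), CCT7 by 0.45 ± 0.10 (adjusted p = 0.00134) and CCT3 by 0.41 ± 0.10 (adjusted p = 0.00153) at their brightest probes. Probes of CCT5 (1 of 2), CCT8 (1 of 2), HSPD1 (5 of 21) and HSPE1 (2 of 6) also rose, but not the brightest probe of these genes, and CCT4 had no call. The median of the 45 probes was 0.42, that of the brightest probes of the 9 genes was 0.32, and that of all probes was 0.13.

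In CR and LW pigs 0 of the 45 probes passed (limma), with 2 in each breed at an unadjusted p below 0.05, and 0% of all probes passed in either. The lower CCT2 value had the same sign there, at -0.44 ± 0.18 in CR pigs and -0.30 ± 0.17 in LW pigs. When the difference between breeds was tested directly, no probe of the array passed the interaction of breed and temperature (0% of all probes), with 7 chaperonin probes (15.6%) and 14.9% of all probes at an unadjusted p below 0.05. For the temperature difference of F1 minus LW pigs, 0 probes passed too (limma), with 21 of the 45 chaperonin probes (46.7%) and 22.7% of all probes at an unadjusted p below 0.05. This share is not one of independent readings. HSPD1 alone supplied 21 of the 45 probes tested, and 20 of those had a median correlation of 0.86 with each other. For CCT2 the temperature difference of F1 pigs exceeded that of LW pigs by -0.61 ± 0.24 (adjusted p = 0.151), so a difference between these breeds was not shown.

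The calls changed when F1 pigs were omitted and when array brightness entered the model. Without F1 pigs, 0 of the 45 probes and 0 of all 39072 probes passed over the other 2 breeds. Of the 45, 3 had an unadjusted p below 0.05 (limma). CCT2 was then at -0.37 (adjusted p = 0.214), TCP1 at 0.15 (adjusted p = 0.369), CCT3 at 0.06 (adjusted p = 0.609) and CCT7 at 0.13 (adjusted p = 0.341). With array brightness as a covariate, 6 probes (13.3%) and 17.2% of all probes passed over the 3 breeds, the 6 including CCT2 at -0.41 (adjusted p = 0.00733) and CCT7 at 0.16 (adjusted p = 0.0321), but not TCP1 at 0.16 (adjusted p = 0.0653) or CCT3 at 0.11 (adjusted p = 0.142). In F1 pigs, where brightness and temperature went together, that covariate left 0 of the 45 probes, with 5 at an unadjusted p below 0.05, and 0 of all 39072 probes, and the values were -0.50 for CCT2, 0.20 for TCP1 and 0.23 for both CCT3 and CCT7.

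Across the 35 pigs, with group means removed, brightness was also correlated with the level of several chaperonin genes, positively or, for CCT2, negatively. The Pearson correlation was 0.62 for TCP1 (Spearman 0.60, adjusted p = 0.00063 and 0.00132), 0.60 for CCT7 (Spearman 0.66, adjusted p = 0.0009 and 0.00018), 0.53 for CCT3 (Spearman 0.46, adjusted p = 0.00299 and 0.015) and -0.60 for CCT2 (Spearman -0.58, adjusted p = 0.00099 and 0.00162), by permutation tests over 18 relations. Without the 2 pigs farthest from the median brightness these were 0.59, 0.62, 0.52 and -0.48. HSPD1 and HSPE1 also passed, at 0.45 and 0.44 (Spearman 0.48 for both, adjusted p = 0.0211 and 0.0215 for Pearson and 0.0129 for Spearman, permutation, 0.46 and 0.41 without the 2 farthest pigs), while CCT4, CCT5 and CCT8, at 0.30, 0.21 and 0.32, did not. CCT2 also followed the mean of the erythroid markers, with a Pearson correlation of 0.67 (Spearman 0.63, adjusted p = 0.00063 and 0.00072 by permutation, and 0.65 without the 2 farthest pigs). For the other 8 genes the correlation with the erythroid mean ran from -0.33 to 0.37 and none passed. With the erythroid mean as a covariate the CCT2 difference was -0.35 (adjusted p = 0.036), and those of TCP1, CCT3 and CCT7 were 0.25, 0.12 and 0.19 and no longer passed (adjusted p = 0.0649, 0.203 and 0.0733). That fit called 4 of the 45 probes (8.89%) and 6.39% of all probes. In F1 pigs the 4 calls held with this covariate, at -0.60 for CCT2 (adjusted p = 0.0083), 0.51 for TCP1 (adjusted p = 0.0151), 0.34 for CCT3 (adjusted p = 0.0239) and 0.38 for CCT7 (adjusted p = 0.019). With the covariate, 13 of the 45 probes (28.9%) passed in F1 pigs, beside 16.6% of all probes.

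**Figure D4:**
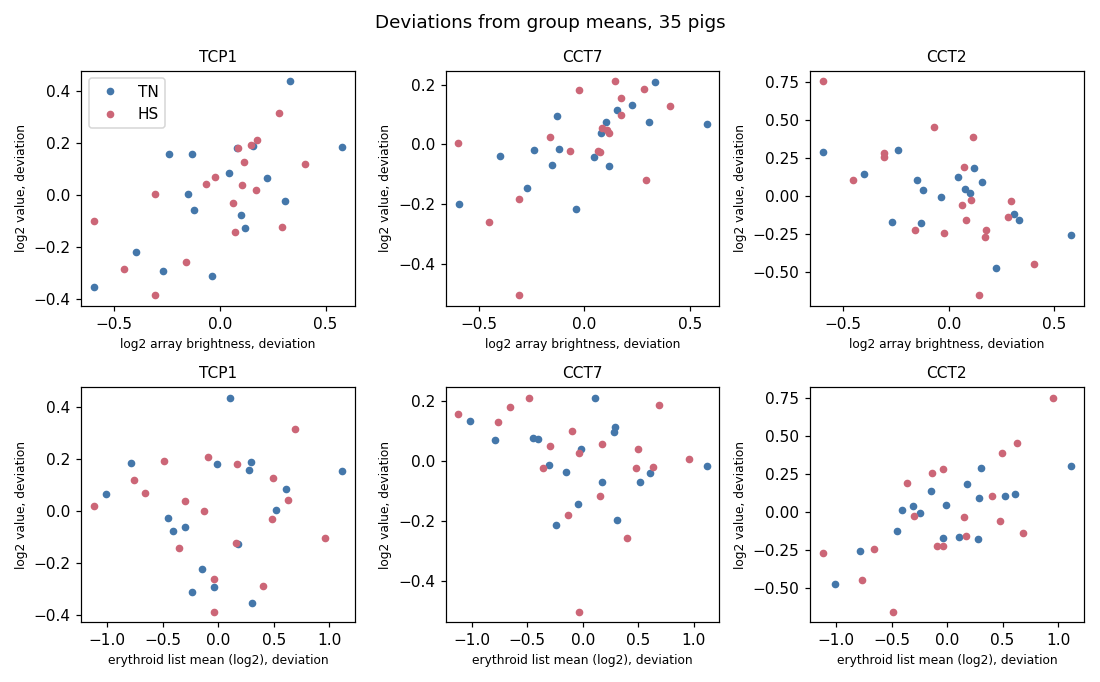
Deviation of the log2 value of TCP1, CCT7 and CCT2 from the group mean (y axis) against the deviation of log2 array brightness (upper row) and of the erythroid marker mean (lower row), 1 point per pig, 35 pigs (blue, TN; red, HS). TCP1 and CCT7 rise with brightness at correlations of 0.62 and 0.60, and CCT2 falls with brightness and rises with the erythroid mean.

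The arrays lay on 5 slides, of which 4 allowed HS and TN pigs to be compared within a slide. CCT2 was lower in HS pigs on each of these 4 slides, by -0.42, -0.67, -0.79 and -0.53. TCP1 was higher on each, by 0.19 to 0.27, CCT3 by 0.12 to 0.22 and CCT7 by 0.09 to 0.26. CCT4, CCT5, CCT8, HSPD1 and HSPE1 differed in sign between slides. With slide as a block the difference was -0.55 for CCT2 and 0.27, 0.19 and 0.24 for TCP1, CCT3 and CCT7. The remaining slide held HS and TN pigs of different breeds and gave no value.

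Chaperonin levels were also compared between breeds over both temperatures. None of the 45 probes passed for CR against LW pigs, F1 against CR pigs or F1 against LW pigs (limma), with 4, 1 and 1 at an unadjusted p below 0.05. Over all probes 1.08%, 0.184% and 0.0256% passed. The largest differences of a brightest probe were found for HSPD1, at 0.30 ± 0.17 for CR minus LW pigs (adjusted p = 0.618) and -0.32 ± 0.17 for F1 minus CR pigs (adjusted p = 0.941). TCP1 was 0.21 ± 0.10 higher in CR than in LW pigs (adjusted p = 0.455).

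Whether the members varied together from pig to pig was examined next. Of the 36 pairs of brightest probes, 18 were correlated after removal of group means by Pearson's r and 14 by Spearman's rho (permutation test, adjusted over the 36 pairs). The 21 TRiC pairs had a median r of 0.24 and ran from -0.52 for CCT2 and CCT7 to 0.86 for CCT4 and CCT8, with 9 pairs past the threshold. TCP1 and CCT7 had an r of 0.78 (rho 0.77, adjusted p = 7.2e-05 and 9e-05 by permutation, 0.74 without the 2 pigs farthest from the TCP1 median).

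The pairs that joined TRiC to the mitochondrial chaperonin had a median r of 0.45 over 14 pairs and 8 past the threshold. HSPD1 had an r of 0.88 with CCT4 (rho 0.84) and of 0.87 with CCT8 (rho 0.89), above its r of 0.65 with its neighbour HSPE1 (rho 0.58). Whether TRiC pairs and pairs across the complexes differ was not tested. CCT5 was correlated with no other member past the threshold, and its r ran from -0.22 to 0.30. The pair of CCT2 and CCT7 was the only one of the 36 with a negative r past the threshold. The median r over the 36 pairs was 0.23 without the 2 pigs farthest from the median of the first gene of each pair. Pairs followed the order in which the genes were listed at the start.

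**Figure D5:**
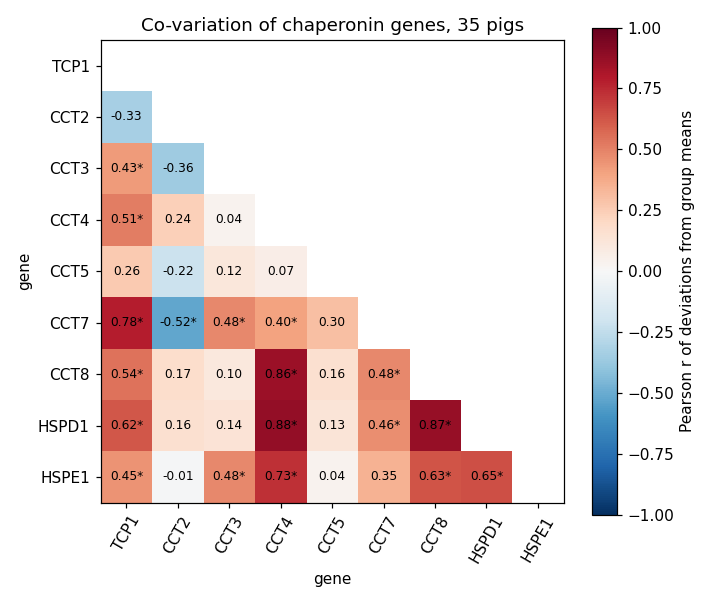
Pearson r between the brightest probes of 9 chaperonin genes over 35 pigs after removal of group means, 1 cell per pair of genes, with the colour scale from -1 to 1. An asterisk marks an adjusted permutation p below 0.05, as for 18 of 36 pairs. CCT4, CCT8, HSPD1 and HSPE1 form the block of high values, from 0.63 to 0.88.

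The mean of the 7 measured TRiC subunits was then set against 11389 other named genes, in 35 pigs with group means removed. The 10 genes most like it were SOD1, which codes for a cytosolic superoxide dismutase, with an r of 0.86, and NHP2L1 (0.85), BIVM (0.84), NUP160 (0.84), KIF2A (0.84), METTL10 (0.83), ATP5G3 (0.83), NSMCE4A (0.83), LOC100517493 (0.83) and UBE2NL (0.83). NUP160 codes for a nuclear pore protein, KIF2A for a kinesin and ATP5G3 for a subunit of the mitochondrial ATP synthase. The middle of the distribution was -0.06 and 5% of the genes lay above 0.68. The same mean had a correlation of 0.38 with array brightness (Spearman 0.35, adjusted p = 0.0701 and 0.0624 by permutation over 3 relations, 0.44 without the 2 farthest pigs), and the part of brightness in these likenesses was not tested.

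Genes that work with the chaperonins were read from lists of partners. Prefoldin hands unfolded actin and tubulin to TRiC, and of its 6 subunits 1 was higher in HS pigs, VBP1 by 0.14 ± 0.05 (adjusted p = 0.0426). The list median was 0.10. The phosducin-like cofactors that assist TRiC, PDCL and TXNDC9, were at 0.07 ± 0.05 and 0.02 ± 0.09 and did not pass, and neither did the chaperonin-related genes MKKS at 0.08 ± 0.09 and BBS12 at 0.07 ± 0.08.

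Of 15 measured TRiC substrates, 4 were higher and none was lower in HS pigs, with a median of 0.21. They were ACTB, the cytoplasmic beta actin, at 0.38 ± 0.10 (adjusted p = 0.00427), STAT3 at 0.28 ± 0.11 (adjusted p = 0.0374), the tubulin gene TUBB3 at 0.24 ± 0.07 (adjusted p = 0.00826) and GNB2, a G protein beta subunit, at 0.23 ± 0.08 (adjusted p = 0.0199). The share of substrates called was 4 of 15, beside the 34.8% of all probes. In F1 pigs 3 were higher and 1 was lower, FZR1, which codes for an activator of the anaphase-promoting complex, at -0.83 ± 0.28 (adjusted p = 0.0185).

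The mitochondrial matrix chaperones and proteases, which share the compartment of HSP60, had 5 of 10 genes higher and none lower, with a median of 0.19, beside 20.1% of all probes higher and 14.7% lower. The mitochondrial HSP90 homologue TRAP1 was at 0.54 ± 0.10 (adjusted p = 0.00159), the protease LONP1 at 0.32 ± 0.08 (adjusted p = 0.00277), the co-chaperone DNAJA3 at 0.25 ± 0.09 (adjusted p = 0.0365) and the protease subunit SPG7 at 0.21 ± 0.06 (adjusted p = 0.00675). HSPA9, the mitochondrial HSP70, was at -0.03 ± 0.06 and did not pass. In F1 pigs 6 of the 10 were higher, with a median of 0.35, beside 20.8% of all probes.

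Genes of mitochondrial import had 3 higher and 1 lower of 8 measured. The receptor TOMM70A was at 0.21 ± 0.06 (adjusted p = 0.0108), the motor subunit TIMM44 at 0.21 ± 0.06 (adjusted p = 0.00896) and the channel subunit TIMM17A at 0.17 ± 0.06 (adjusted p = 0.019), whereas TIMM50 fell by 0.20 ± 0.06 (adjusted p = 0.0126). With scaling on the 75th percentile in place of the quantile normalization, TIMM44 was at 0.55 and TIMM50 at -0.54. Over all 43 partner genes measured, 13 were higher and 1 was lower, or 32.6% called against 34.8% of all probes. Without F1 pigs 0 of the 43 and 0% of all probes passed (limma), with 8 of the 43 at an unadjusted p below 0.05.

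A pair of probes behaved unlike the others of their gene. The HSPE1 probe O8477 overlaps A_72_P752325 by 26 bases with 1 difference, A11G, counted from the 5′ end of O8477. Its log2 values fell on both sides of a gap between 7.06 and 9.04, with 6 of the 35 pigs below it. Of these, 3 were F1 TN pigs, 2 were F1 HS pigs and 1 was a LW HS pig, and none of the 11 CR or 6 LW TN pigs was among them. Within groups it had an SD of 1.04, against 0.22 to 0.35 for the other 5 HSPE1 probes, and its median correlation with them was -0.11, while the others had a median of 0.64 among themselves. The HSPD1 probe O3429 gave dim signals, with a log2 range of 5.00 to 5.98, and its correlations with the other 20 HSPD1 probes ran from -0.60 to -0.29, against a median of 0.86 among those 20.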

How the data were processed

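The authors hybridised Cy3-labelled RNA to a custom Agilent porcine array with 1 colour. Agilent Feature Extraction 10.10.1.1, named in the deposited scanner files, gave an intensity for each of 61625 spots. For their deposited log2 values, of 39072 probes, the authors took median intensities, normalized them by quantiles and kept expressed probes. All main results rest on these log2 values, which correlated at 0.99997 with those recomputed here from the scanner files. Its 35 columns all matched sample labels.

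Groups came from sample titles. Replicate numbers follow the order of the records and pair no animals. Each probe was fitted with limma 3.58.1 in R 4.3.3, with an additive model of breed and temperature for overall and breed differences and with 6 group means for effects within breeds and interactions. Tests were two-sided, with Benjamini-Hochberg adjustment over all probes of the table and a threshold of 0.05. Pen, day of slaughter, father and mother, which the study fitted as random effects, are in no label, so an SE treats pigs as independent. Each gene is represented by its probe of highest mean log2 value, and other probes are named where call or sign differs. Correlations used deviations from group means and 100000 permutations, whose smallest possible p is 1e-05. Partner lists name the genes that passed, at most 4 in each direction, or else the 2 of smallest p. Members, gene lists and tests were chosen with earlier results of these data known, and brightness as a covariate, the omission of CR or LW pigs and the single count of identical probes were added after the data were seen. The fits were tested on simulated data. Probes of 1 gene were ordered by mean log2 value only to choose its representative, and this order is not one of RNA amounts. The number of arrays limits the precision. No genome was used and the files place no probe on a chromosome, so no coordinates are given. Positions in HSPD1 are those in the scanner files.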

Additional observations from a re-analysis of the deposited data

Results flagged for a closer look

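Among 54 sets of 5 or 6 pigs (9 genes in 6 groups, brightest probes), 3 held a pig far from the others by the gap to its nearest neighbour over the range of the set, and chance alone picks out about 5% of such sets. CCT4 was at 10.38 in LW HS pig 5, above the other 5 pigs at 9.53 to 9.80. CCT7 was at 12.44 in CR HS pig 1, below the others at 12.92 to 13.16. HSPE1 was at 12.18 in F1 HS pig 4, below the others at 12.66 to 12.91, and without this pig HSPE1 passed in F1 pigs, at 0.42 (adjusted p = 0.0319, limma).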

How the results depend on the processing

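No paired analysis was possible because replicate numbers follow record order and pair no animals. Over the 3 breeds, 12 of 45 chaperonin probes passed, beside 34.8% of all probes. The count became 4 with the erythroid mean as a covariate, beside 6.39% of all probes. It became 6 with array brightness as a covariate, beside 17.2%, and 0 without F1 pigs, beside 0%. When probes were averaged by gene, 4 of 9 genes passed, beside 40.1% of all named genes. Over the other alternatives and 35 refits without 1 pig, the count ran from 9 to 16. In F1 pigs the count of 18, beside 38.7% of all probes, became 0 with array brightness as a covariate, beside 0%. When averaged by gene, 7 of 9 genes passed in F1 pigs, beside 43.4% of all named genes. The count of F1 probes ran from 11 to 27 without 1 pig, with 11 without F1 TN pig 3 or without F1 HS pig 6. With array weights, 1 of the 45 probes (2.22%) passed in LW pigs, beside 2.84% of all probes. For CR against LW pigs 4 (8.89%) passed with these weights, beside 3.9% of all probes. The partner genes that passed went from 14 to 5 with the erythroid covariate, beside 34.8% and 6.39% of all probes. They went to 0 without F1 pigs, beside 0% of all probes. The count of correlated pairs stayed between 15 and 20. The causes were not tested. No sign of a called brightest probe reversed under any alternative. In F1 pigs HSPD1 passed at its brightest probe without F1 HS pig 4 (0.59) or F1 TN pig 5 (0.57), and HSPE1 without F1 HS pig 4 (0.42) or F1 TN pig 1 (0.48). The median of all probes in F1 pigs was 0.13, and 0.18 with scaling on the 75th percentile. Under that scaling 15 chaperonin probes were higher and 1 was lower over the 3 breeds (35.6%), beside 35.9% of all probes in either direction.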
